A study of Mus musculus with 6 samples.

Results

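The mitochondrial ribosomal protein genes of mouse brain astrocytes are described here across 3 mock and 3 quinpirole libraries. Members were the protein-coding genes whose Ensembl identifier maps to a symbol starting with Mrpl (large subunit) or Mrps (small subunit) followed by a digit. They numbered 77 of the 17193 genes in the deposited tables, 48 of the large and 29 of the small subunit. The annotation lists 78 such genes. The one left over, *Mrpl33*, was not analysed here.

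Mitochondria carry their own ribosome, which translates the few respiratory-chain proteins that mitochondrial DNA encodes. Its RNA comes from mitochondrial DNA, whereas every one of its proteins is encoded in the nucleus, made in the cytosol and imported. The small subunit decodes the messenger RNA and the large subunit forms the peptide bond. Some of its proteins have counterparts in bacterial ribosomes and others are found in mitochondria alone.

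The study asked what acts downstream of the dopamine D2 receptor (DRD2) in astrocytes, the glial cells that support neurons. Wild type C57BL/6 mice of 3 months were given mock treatment or quinpirole, a DRD2 agonist, and astrocytes were isolated from the brain with microbeads against the surface antigen ACSA-2. Polyadenylated RNA was sequenced in 3 libraries per group. Values are FPKM, fragments scaled to the length of the transcript and to the number of mapped fragments, so levels can be compared between genes. Nothing in the labels says that the 3 libraries of a group came from separate mice, so the p-values measure the spread between these libraries, which may be technical.

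Depth, estimated from the steps between low FPKM values, was 22300000 to 27500000 fragments per library, and the summed FPKM of a library was 401769 to 413730 in the mock group and 425244 to 437164 in the quinpirole group. Of 17193 genes, 12255 had a mean of at least 1 FPKM and were tested, and 1339 (10.9%) passed limma's adjusted p of 0.05 in either direction. Of the astrocyte markers, *Gfap* (482 to 560 FPKM) and *Slc1a3* (186 to 215 FPKM) were high in every library. *Slc1a2* (5.15 to 8.55 FPKM) and *S100b* (5.01 to 6.18 FPKM), of the same list, were low. The smooth-muscle actin gene *Acta2*, a marker of mural cells, lay above all of these at 2518 to 2881 FPKM. Of 10 astrocyte markers, 2 (*Slc1a2* and *Atp1b2*) were called lower after quinpirole in limma and none higher. Their sums were 1489 to 1650 FPKM in the mock and 1478 to 1508 FPKM in the quinpirole libraries, over all 10.

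All 77 mitochondrial ribosomal protein genes passed the filter on low values, and 72 of them had a log2 fold change above 0. After quinpirole 20 members rose and none fell at limma's adjusted p of 0.05, which is 26.0% of members, where 5.74% of all tested genes were called higher. The median log2 fold change, on the log2(FPKM + 1) scale, was 0.17 over the members and 0.02 over all tested genes. In 45 members (58.4%) every quinpirole library lay above every mock library, as in 20.0% of all tested genes, and in none did every quinpirole library lie below every mock library, as in 16.9% of all tested genes. In a bulk sample, fewer cells of a type and less RNA per cell cannot be told apart. The median difference of the group means was 12.9% of the mock mean, beside a median coefficient of variation of 6.09% in the mock and 4.58% in the quinpirole group.

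The count of 20 moved when a library was left out. It was 0 without mock 1, mock 2, quinpirole 1 or quinpirole 2. In those fits 35 to 40 members had an unadjusted p under 0.05 in limma, beside 2891 to 3374 of the 12255 tested genes. The count was 1 without quinpirole 3 and 20 without mock 3, of which 12 were also among the 20 called with all libraries. Over all 12255 tested genes the same fits called 6, 3, 11 and 25 genes in either direction without mock 1, mock 2, quinpirole 1 and quinpirole 2, 210 without quinpirole 3 and 1215 without mock 3, beside 1339 with all libraries.

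**Figure D1:**
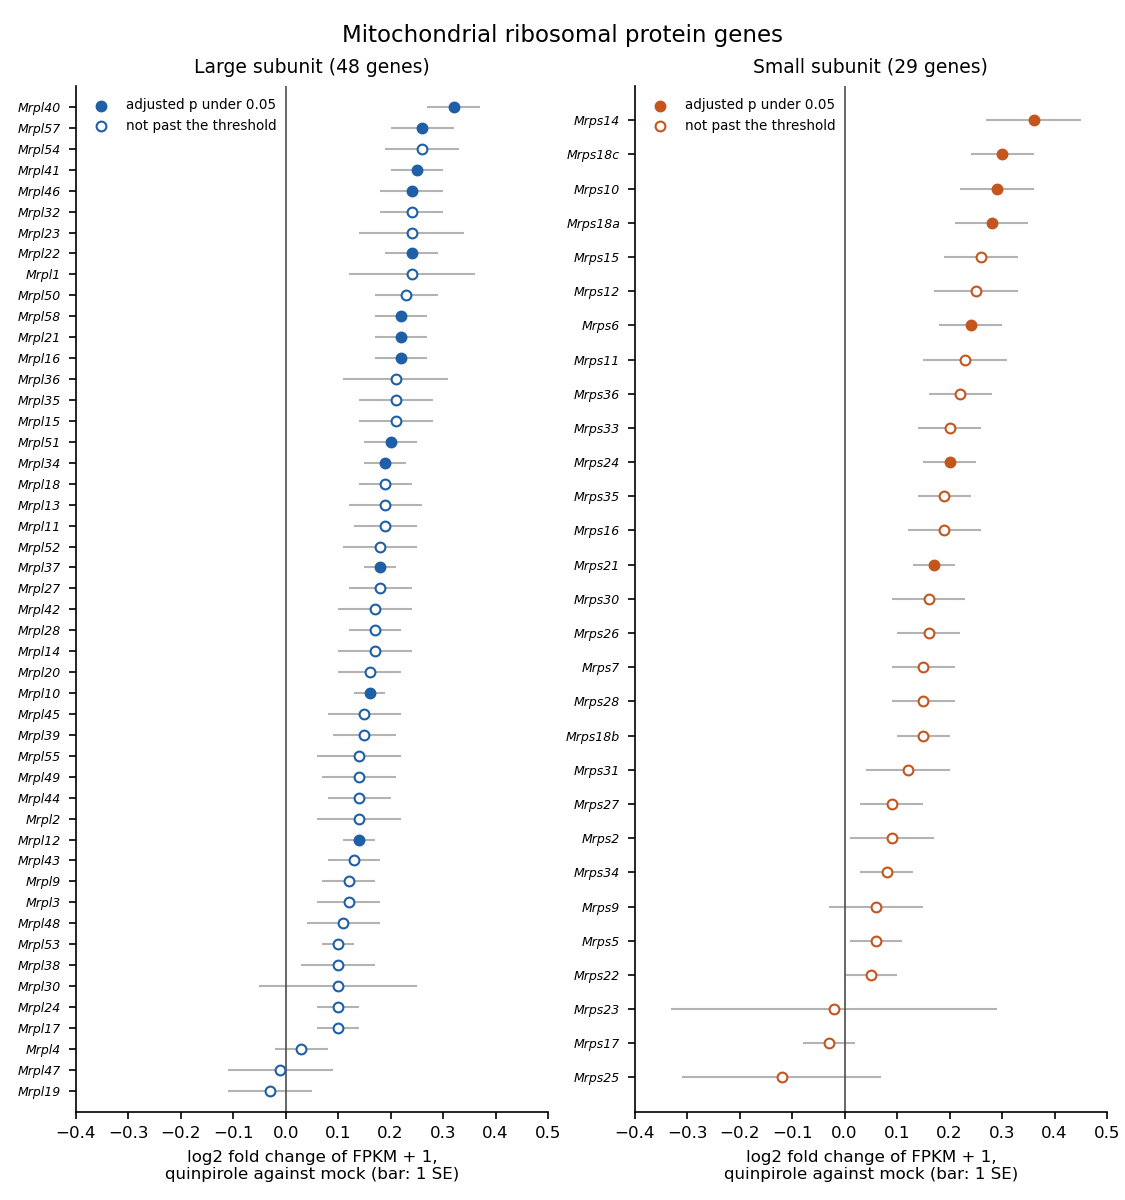
The log2 fold change of FPKM + 1, quinpirole against mock, of each large subunit gene (left) and small subunit gene (right), sorted by size, with bars of 1 standard error. Filled points are genes past limma's adjusted p of 0.05, and 72 of the 77 points lie to the right of 0.

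The subunits gave close counts. Of the large subunit genes 13 of 48 (27.1%) rose, and of the small subunit genes 7 of 29 (24.1%). The median log2 fold change was 0.17 for the large and 0.16 for the small subunit, a difference of 0.015 before rounding, beside a standard deviation of 0.012 between libraries. Placing the genes by ribosome structure moved *Mrps18a* and *Mrps30* to the large subunit and took out *Mrps36*, whose product belongs to the oxoglutarate dehydrogenase complex. The counts were then 14 of 50 and 6 of 26.

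Within each library the medians of both subunits lay close together. Against the mean of the mock libraries, the median large subunit gene stood at -0.01, -0.03 and 0.07 (log2) in the mock libraries and at 0.15, 0.21 and 0.14 in the quinpirole libraries. The median small subunit gene stood at -0.02, -0.03 and 0.09 in the mock and at 0.17, 0.22 and 0.13 in the quinpirole libraries. Mock 3 was the highest of its group and quinpirole 2 the highest of all in both subunits. The same held for the summed FPKM of the whole library, at 413730 in mock 3 and 437164 in quinpirole 2. The part of such library-wide differences in the medians was not tested.

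**Figure D2:**
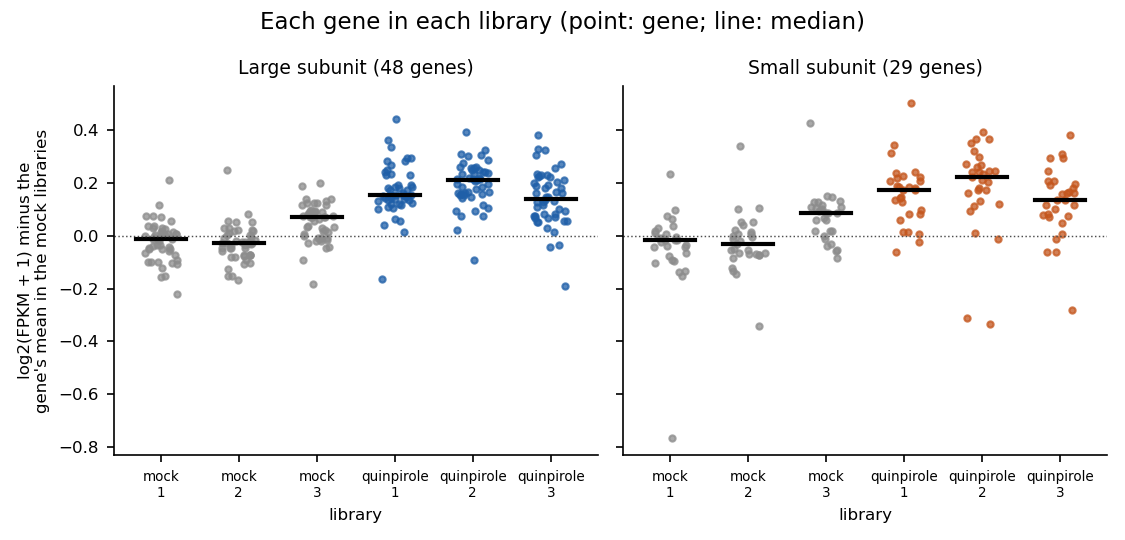
Each gene's log2(FPKM + 1) minus its mean over the mock libraries, by library, for the large subunit (left) and the small subunit (right). Points are genes and black lines are medians, which reach 0.07 and 0.09 in mock 3 and lie at 0.13 or above in every quinpirole library.

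Summed over the large subunit, the level was 1199, 1178 and 1268 FPKM in the mock libraries and 1369, 1400.5 and 1344 FPKM in the quinpirole libraries. Over the small subunit it was 997, 1002 and 1093 FPKM in the mock and 1163, 1227 and 1161 FPKM in the quinpirole libraries. The groups did not overlap in either sum, with log2 ratios of the group means of 0.17 and 0.20. The ratio of the large to the small sum was 1.20, 1.18 and 1.16 in the mock and 1.18, 1.14 and 1.16 in the quinpirole libraries, so the groups overlapped. Of a library's whole FPKM the members held 0.547%, 0.542% and 0.571% in the mock and 0.594%, 0.601% and 0.589% in the quinpirole group, which again did not overlap.

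**Figure D3:**
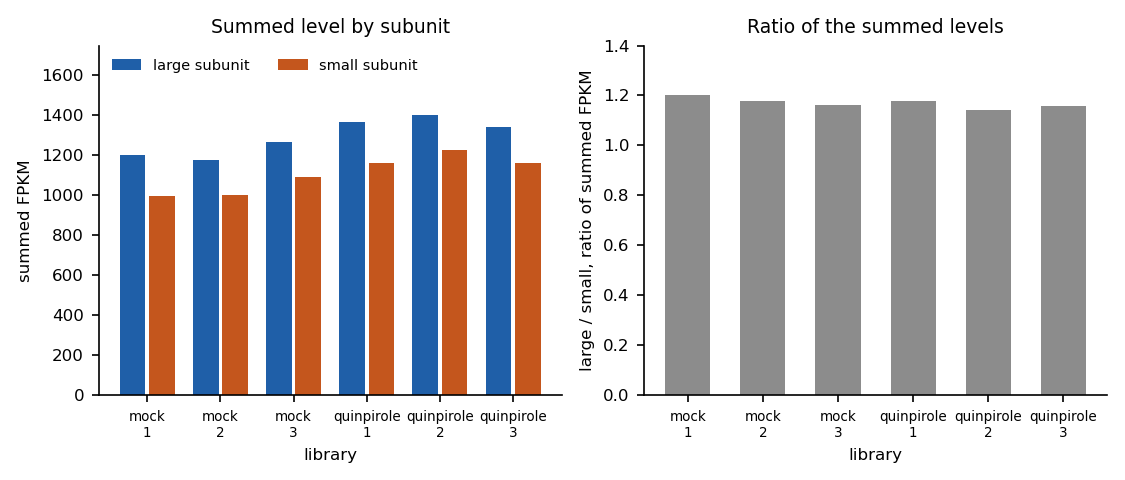
Summed FPKM of the large and small subunit genes in each library (left), and the ratio of the large to the small sum (right). Every quinpirole bar on the left is taller than every mock bar of its subunit, while the ratio stays between 1.14 and 1.20 in all 6 libraries.

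The levels of single members differed far more than their responses. The large subunit genes had a median of 27.6 FPKM and ran from 3.45 FPKM (*Mrpl1*, of the stalk that the L1 protein forms) and 3.78 FPKM (*Mrpl19*) to 59.7 FPKM (*Mrpl34*), 63.0 FPKM (*Mrpl28*) and 63.9 FPKM (*Mrpl52*). The small subunit genes had a median of 20.0 FPKM and ran from 5.82 FPKM (*Mrps25*) and 6.71 FPKM (*Mrps26*) to 55.7 FPKM (*Mrps34*), 97.8 FPKM (*Mrps21*) and 433 FPKM (*Mrps6*). Without *Mrps6* the small subunit sum was 613, 623 and 667 FPKM in the mock and 706, 733 and 704 FPKM in the quinpirole libraries, with a log2 ratio of 0.17. That sum without *Mrps6* was chosen after its level was seen.

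*Mrps6* (ENSMUSG00000039680, chr16:92058270-92112227, GRCm38) encodes the counterpart of bacterial S6. Its level was 384, 378 and 425 FPKM in the mock libraries and 457, 494 and 457 FPKM in the quinpirole libraries. The groups did not overlap, and it rose by 0.24 ± 0.06 (log2, SE, n = 3 per group, limma adjusted p = 0.0407). Of its exonic bases 19.9% are also exonic in genes on the same strand, *Slc5a3*, a transporter of myo-inositol, among them. *Slc5a3* itself went the other way, at 29.9, 27.5 and 24.6 FPKM in the mock and 19.2, 16.8 and 20.8 FPKM in the quinpirole libraries, and fell by 0.51 on the log2 scale (limma adjusted p = 0.0258). How the authors' counting split reads between these genes is not given in the sources used here.

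In the large subunit the member with the smallest p was *Mrpl40* (ENSMUSG00000022706, chr16:18872018-18876862), a protein with no bacterial counterpart. It stood at 13.8, 15.0 and 15.6 FPKM in the mock and 18.9, 18.2 and 18.7 FPKM in the quinpirole libraries. All quinpirole libraries lay above all mock libraries, and the rise was 0.32 ± 0.05 (log2, SE, n = 3 per group, limma adjusted p = 0.025). With all 6 libraries its call was lost with a replicate block (adjusted p = 0.0802), with a correction for transcript length (adjusted p = 0.0547), with both (adjusted p = 0.141) and with a correction for length and GC content (adjusted p = 0.0519), all in limma, and it held under the other scalings, filters and settings tried.

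*Mrpl41* (chr2:24974117-24975098) and *Mrpl57* (chr14:57826234-57829296) are likewise specific to mitochondria. *Mrpl41* stood at 36.0, 34.2 and 38.0 FPKM in the mock and 42.5, 44.9 and 42.2 FPKM in the quinpirole libraries, and rose by 0.25 ± 0.05 (log2, SE, limma adjusted p = 0.029). *Mrpl57* stood at 12.9, 11.8 and 12.02 FPKM in the mock and 14.1, 15.5 and 15.0 FPKM in the quinpirole libraries, and rose by 0.26 ± 0.06 (limma adjusted p = 0.0339). In both genes the lowest quinpirole library lay above the highest mock library. *Mrpl37*, also of this class, had tight replicates, with 34.5, 33.8 and 34.7 FPKM in the mock and 39.1, 39.2 and 38.5 FPKM in the quinpirole libraries. It rose by 0.18 ± 0.03 (limma adjusted p = 0.029).

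*Mrpl58* encodes a peptidyl-tRNA hydrolase that was built into the ribosome and can free stalled chains. Its level was 18.8, 18.0 and 19.0 FPKM in the mock and 22.8, 21.4 and 21.2 FPKM in the quinpirole libraries, without overlap, and it rose by 0.22 ± 0.05 (log2, SE, limma adjusted p = 0.0344). *Mrpl44*, which carries a ribonuclease III-like fold, stood at 13.4, 13.4 and 14.9 FPKM in the mock and 15.4, 16.3 and 14.5 FPKM in the quinpirole libraries. Its groups overlapped, at 0.14 ± 0.06 (limma adjusted p = 0.18). *Mrpl54*, next to *Mrpl57* in size at 0.26 ± 0.07, did not pass the threshold (limma adjusted p = 0.0524). The large subunit genes *Mrpl16*, *Mrpl21*, *Mrpl46* and *Mrpl51* and the small subunit gene *Mrps24* rose by 0.20 to 0.24 (limma adjusted p of 0.0412 to 0.0489), in each with groups that were apart.

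Among large subunit proteins with bacterial counterparts, *Mrpl10*, *Mrpl11* and *Mrpl12* form the stalk region that engages translation factors, and *Mrpl12* also binds the mitochondrial RNA polymerase. *Mrpl10* stood at 31.1, 31.0 and 30.7 FPKM in the mock and 34.4, 35.3 and 34.3 FPKM in the quinpirole libraries, and rose by 0.16 ± 0.03 (log2, SE, limma adjusted p = 0.0366). *Mrpl12* stood at 37.3, 36.4 and 37.8 FPKM in the mock and 41.0, 41.2 and 40.8 FPKM in the quinpirole libraries, and rose by 0.14 ± 0.03 (limma adjusted p = 0.0471). The groups of both genes were apart. For *Mrpl11* they were apart too, with 7.97, 8.09 and 8.87 FPKM in the mock and 9.21, 9.66 and 9.93 FPKM in the quinpirole libraries, yet its 0.19 ± 0.06 did not pass (limma adjusted p = 0.0781). *Mrpl22*, at the exit tunnel, and *Mrpl34* rose by 0.24 ± 0.05 (limma adjusted p = 0.0322) and 0.19 ± 0.04 (limma adjusted p = 0.0362).

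By class, 6 of 29 measured large subunit proteins listed with a bacterial counterpart rose (20.7%, median log2 fold change 0.17). Over all tested genes 5.74% were called higher. The large subunit proteins specific to mitochondria numbered 21 as the list was drawn up, with *Mrps18a* and *Mrps30* among them. Of these 8 rose (38.1%, median 0.18), and every one of the 21 had a log2 fold change of 0.10 or more. *Mrps18a* is itself a counterpart of bacterial S18, and without it, a choice made after its values were seen, 7 of 20 rose (35.0%, median 0.17). In the small subunit 6 of 16 proteins listed with a bacterial counterpart rose (37.5%, median 0.20). Of 10 proteins listed as specific to mitochondria, the S18 counterpart *Mrps18b* among them, none did in limma (median 0.10), again to be read beside 5.74%. Of these 10, 4 had an unadjusted p under 0.05 in limma, as had 3839 of all 12255 tested genes. The difference between these classes was not tested.

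In the small subunit the largest log2 fold change was that of *Mrps14* (ENSMUSG00000058267, chr1:160195215-160202170), the counterpart of bacterial S14. It stood at 12.5, 14.0 and 12.4 FPKM in the mock and 18.7, 17.3 and 14.8 FPKM in the quinpirole libraries. The groups did not overlap, although the quinpirole libraries were widely spread, and the rise was 0.36 ± 0.09 (log2, SE, n = 3 per group, limma adjusted p = 0.0459). *Mrps10*, the counterpart of S10, was as uneven, with 17.2, 17.4 and 17.1 FPKM in the mock and 18.9, 22.5 and 22.7 FPKM in the quinpirole libraries, and rose by 0.29 ± 0.07 (limma adjusted p = 0.0454). *Mrps21* had the smallest p of the small subunit, with 91.3, 91.1 and 93.1 FPKM in the mock and 101, 107 and 103 FPKM in the quinpirole libraries, and rose by 0.17 ± 0.04 (limma adjusted p = 0.031). *Mrps12*, the counterpart of the decoding-centre protein S12, did not pass at 0.25 ± 0.08 (limma adjusted p = 0.0763).

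Mammals have 3 genes for counterparts of bacterial S18, whose products sit in different places of the mitochondrial ribosome, *Mrps18a* in the large subunit and the others in the small subunit. *Mrps18c* stood at 14.9, 17.1 and 17.6 FPKM in the mock and 21.2, 20.1 and 20.5 FPKM in the quinpirole libraries, and rose by 0.30 ± 0.06 (log2, SE, limma adjusted p = 0.0344). *Mrps18a* stood at 29.0, 32.8 and 34.1 FPKM in the mock and 37.9, 40.9 and 38.0 FPKM in the quinpirole libraries, and rose by 0.28 ± 0.07 (limma adjusted p = 0.0415). *Mrps18b* stood at 17.6, 17.8 and 18.1 FPKM in the mock and 20.97, 20.2 and 18.5 FPKM in the quinpirole libraries. All 3 paralogs had groups that were apart, but *Mrps18b*, at 0.15 ± 0.05, did not pass (limma adjusted p = 0.11). Of the words of 50 bases in the longest *Mrps18b* transcript, 63.7% also occur, on either strand, in transcripts of other annotated genes. The antisense gene *Gm16279* is among these. For *Mrps18c* the share of such words was 23.2%, and 23.2% of its exonic bases are also exonic in *Gm43511* on the same strand. Of the other members whose names do not match their place, *Mrps30* had 0.16 ± 0.07 (limma adjusted p = 0.19) and *Mrps36* had 0.22 ± 0.06 (limma adjusted p = 0.051).

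The 5 members below 0 were *Mrpl19* (-0.03), *Mrpl47* (-0.01), *Mrps17* (-0.03), *Mrps23* (-0.02) and *Mrps25* (-0.12), on the log2 scale, and none passed (limma adjusted p of 0.69 to 0.974). *Mrps23* had the widest spread of all members, with 11.8, 26.5 and 28.3 FPKM in the mock and 22.9, 16.3 and 22.9 FPKM in the quinpirole libraries, with mock 1 the lowest of all. *Mrps25* stood at 7.24, 4.52 and 6.54 FPKM in the mock and 7.19, 4.65 and 4.76 FPKM in the quinpirole libraries, so mock 2, quinpirole 2 and quinpirole 3 lay together below the rest. Of its exonic bases 69.8% lie opposite exons of *Nr2c2*, and without strand information the reads of such partners cannot be told apart. *Mrpl19* (36.0% opposite *Gcfc2*) and *Mrpl47* (24.2% opposite *Actl6a* and *Ndufb5*) are placed in the same way. Across the members, 14 had at least 10% of their exonic bases opposite another gene. *Mrps34*, which lay above 0 (0.08), was among them at 63.4%, and 37.0% of its exonic bases are also exonic in a gene on the same strand. The genes that overlap it are *Mapk8ip3* (-0.34, limma adjusted p = 0.0225) and *Nme3* (0.09, limma adjusted p = 0.548).

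The members are short genes, and length moved with the fold change in these libraries. Their median exonic length was 2255 bases, against 4521 bases over all tested genes. Over 12223 tested genes Spearman's rho between exonic length and log2 fold change was -0.47, and over the 77 members it was -0.20, as a description across genes that share the same 6 libraries and are not independent replicates. After a loess correction of each library for exonic length, 69 of 77 members lay above 0, their median was 0.09, and 3 members (3.90%) were called higher, beside 2.09% of all tested genes. These were *Mrpl37* (0.16, limma adjusted p = 0.0438), *Mrps10* (0.36, limma adjusted p = 0.0492) and *Mrps35* (0.26, limma adjusted p = 0.0384). *Mrps35*, a mitochondria-specific small subunit protein, is named because the count is small.

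**Figure D4:**
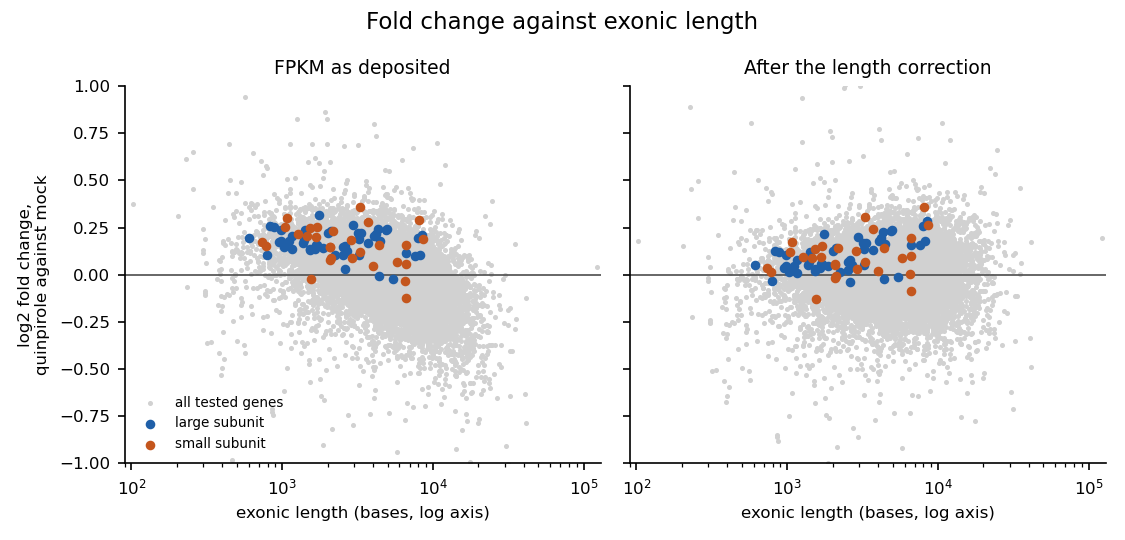
Log2 fold change, quinpirole against mock, against exonic length on a log axis, before (left) and after (right) the length correction, for all tested genes (grey) and the large and small subunit genes (colours); the vertical axis stops at 1 and -1. The grey cloud slopes down on the left and is level on the right, where 69 of the 77 members lie above 0.

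Scaling of the libraries to their total moved the members as much. With every library scaled to the same total FPKM, 67 of 77 members had a log2 fold change above 0, their median was 0.09, and 3 (3.90%) were called higher, beside 1.80% of all tested genes, whose median was then -0.06. The 3 were *Mrpl40* (0.24, limma adjusted p = 0.0343), *Mrpl41* (0.17, limma adjusted p = 0.0416) and *Mrps6* (0.16, limma adjusted p = 0.048). Scaling to a common median ratio moved the members little. It left 72 of 77 above 0, a median of 0.16 and 17 (22.1%) called higher, beside 4.73% of all tested genes. With quantile normalization 73 lay above 0, the median was 0.14 and 6 (7.79%) were called higher, beside 2.31%. Within the members GC content and fold change showed a rho of 0.00. The part that length and scaling have in the members' fold changes was not tested.

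**Figure D5:**
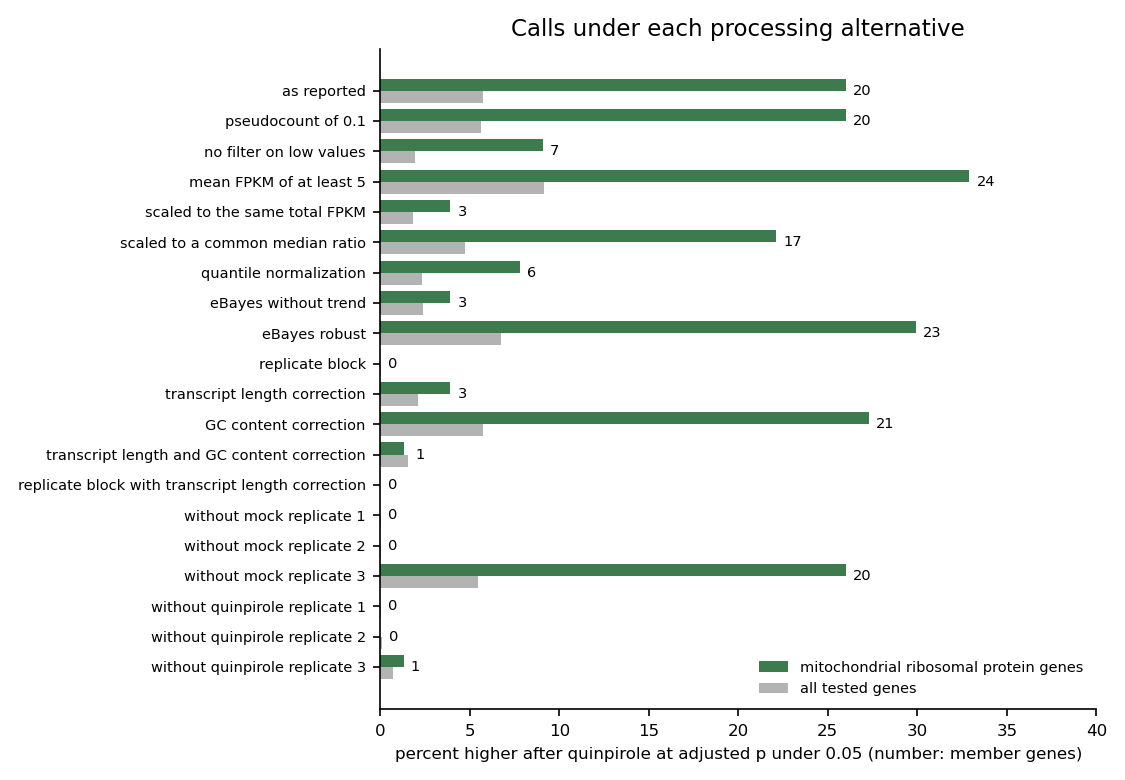
Share of genes called higher after quinpirole (limma adjusted p under 0.05) under each processing alternative, for the mitochondrial ribosomal protein genes (green) and all tested genes (grey); the number at each bar counts the members called. The count runs from 0 to 24, and it is 20 as reported.

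Markers of some other cells also differed in their sums between the groups. The sum of 8 microglia markers was 501 to 518 FPKM in the mock and 531 to 569 FPKM in the quinpirole libraries, with 1 of 8 called higher. The sum of 8 neuron markers was 71.1 to 76.4 FPKM in the mock and 83.1 to 89.6 FPKM in the quinpirole libraries, most of it from *Stmn2* (53.3 to 67.2 FPKM), which was called higher, while 6 of the 8, *Rbfox3*, *Snap25* and *Slc17a7* included, had a mean under 1 FPKM. Mural cell markers summed to 2546 to 2716 FPKM in the mock and 2732 to 2902 FPKM in the quinpirole libraries, nearly all *Acta2*. Of these 4 markers 1 (*Pdgfrb*) was called lower, and 2 (*Rgs5* and *Vtn*) had a mean under 1 FPKM. The sum of 3 markers of oligodendrocyte precursors went the other way, with 2.24 to 2.92 FPKM in the mock and 1.84 to 2.05 FPKM in the quinpirole libraries. Of these 3 markers 2 had a mean under 1 FPKM. The 1 that was tested, *Cspg4*, was not called (-0.19, limma adjusted p = 0.267). The sums over 6 oligodendrocyte markers (156 to 176 and 163 to 173 FPKM), 6 endothelial markers (53.1 to 54.3 and 51.4 to 53.8 FPKM) and 5 ependymal markers (133 to 147 and 130 to 139 FPKM) overlapped, with none called in limma. A single gene made up most of each sum, *Cnp* (151 to 171 FPKM), *Slco1a4* (44.4 to 47.6 FPKM) and *Foxj1* (118 to 130 FPKM). In these lists 3, 3 and 1 markers had a mean under 1 FPKM. Of 5 erythroid markers 1 was measured, at no more than 0.0106 FPKM. Their part in the members' values was not tested.

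The other genes of mitochondrial translation are given by list, and the share called higher in each is to be read beside the 5.74% of all tested genes. Of 5 ribosomal proteins named otherwise, *Gadd45gip1* (0.19 ± 0.04, limma adjusted p = 0.0363) and *Chchd1* (0.34 ± 0.08, limma adjusted p = 0.0418) rose, and *Dap3*, *Aurkaip1* and *Ptcd3* did not pass. Of 15 measured translation factors the release factor *Mtrf1* alone rose (0.32 ± 0.07, limma adjusted p = 0.0364), which is 6.67%, near the share over all tested genes, with a list median of 0.05. Of 27 measured assembly factors 3 rose, namely *Mpv17l2*, which acts in assembly of the large subunit (0.31 ± 0.05, limma adjusted p = 0.0235), *Tfb1m*, the methyltransferase of the small subunit RNA (0.48 ± 0.10, limma adjusted p = 0.0322), and *C1qbp*, a matrix protein (0.20 ± 0.04, limma adjusted p = 0.0325). That is 11.1% of the list, and its median was 0.09. *Mpv17l2* stood at 38.9, 38.1 and 38.0 FPKM in the mock and 44.9, 50.4 and 48.0 FPKM in the quinpirole libraries.

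Of 17 mitochondrial aminoacyl-tRNA synthetases *Lars2*, for leucine, rose from 24.7, 23.7 and 23.9 FPKM to 38.5, 34.1 and 29.9 FPKM (0.48 ± 0.08 log2, SE, limma adjusted p = 0.0251). That is 5.88% of the list, again near the share over all tested genes, and the list median was 0.04. None of 8 genes for the transcription, copying and maintenance of mitochondrial DNA passed in limma (median 0.03). Among them 1 had an unadjusted p under 0.05, the mitochondrial RNA polymerase gene *Polrmt* at -0.20 ± 0.06. None of 9 tested regulators of mitochondrial biogenesis passed (1 at an unadjusted p under 0.05, the coactivator *Ppargc1a* at -0.20 ± 0.07). Over all 12255 tested genes 3839 had an unadjusted p under 0.05 in limma. In the same fit 9 of 13 protein genes of mitochondrial DNA rose, with a median of 0.27, and 31 of 79 tested cytosolic ribosomal protein genes, with a median of 0.22.

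Promoters of genes for mitochondrial proteins are known for sites of the factors NRF1, GABP (of the ETS family) and YY1. A promoter sequence from RefSeq (GRCm38.p6, 250 bases before to 50 after the start) was matched to 68 of the 77 members. The NRF1 letters GCATGCGC occurred on either strand in 7 (10.3%), the ETS letters CCGGAAGT in 11 (16.2%) and the YY1 letters AAGATGGCG in 8 (11.8%), beside 6.1%, 9.3% and 3.6% of the promoters of tested genes and 3.0%, 4.3% and 1.6% of all promoters. At least one of them occurred in 25 members (36.8%), beside 17.8% of tested genes and 8.5% of all, in 17 of 42 large subunit and 8 of 26 small subunit genes. The letters TGACGTCA (the cAMP response element) occurred in 2 members, CACGTG (the E-box) in 5 (7.4%, beside 11.9% of tested genes) and TCAAGGTCA (the site of estrogen-related receptors) in none, beside 0.3% of tested genes. No motif contains another. A match is a description of letters, not evidence of binding. The factors' own genes *Nrf1* (0.05 ± 0.07), *Gabpa* (-0.04 ± 0.06) and *Yy1* (0.00 ± 0.04) did not pass (limma adjusted p of 0.623, 0.68 and 0.983).

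The 150 bases before the start are shown for members that rose and hold one of these sites there, *Mrpl10* (chr11:97041432-97041581, plus strand), *Mrpl22* (chr11:58171514-58171663, plus strand) and *Mrpl51* (chr6:125192050-125192199, plus strand), for *Mrpl32* (chr13:14613038-14613187, minus strand), which holds the most matches, and for the highly expressed *Mrps6* (chr16:92058186-92058335, plus strand), which holds none. They are written from 5′ to 3′ on the strand of the gene, ending at the base before the start, with NRF1 letters (*Mrpl10*, *Mrpl22*, *Mrpl32*) or ETS letters (*Mrpl51*) in capitals.
Mrpl10: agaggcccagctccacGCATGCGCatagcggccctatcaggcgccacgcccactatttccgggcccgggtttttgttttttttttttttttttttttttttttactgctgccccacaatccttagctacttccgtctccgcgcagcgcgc
Mrpl22: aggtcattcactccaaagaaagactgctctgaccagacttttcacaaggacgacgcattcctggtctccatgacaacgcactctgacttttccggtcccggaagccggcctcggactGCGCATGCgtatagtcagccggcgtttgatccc
Mrpl32: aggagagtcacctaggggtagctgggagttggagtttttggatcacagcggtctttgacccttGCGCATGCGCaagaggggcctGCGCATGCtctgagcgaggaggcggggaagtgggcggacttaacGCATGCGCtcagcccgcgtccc
Mrpl51: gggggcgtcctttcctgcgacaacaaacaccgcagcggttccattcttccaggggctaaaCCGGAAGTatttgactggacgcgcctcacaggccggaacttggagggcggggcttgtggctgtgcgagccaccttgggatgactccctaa
Mrps6: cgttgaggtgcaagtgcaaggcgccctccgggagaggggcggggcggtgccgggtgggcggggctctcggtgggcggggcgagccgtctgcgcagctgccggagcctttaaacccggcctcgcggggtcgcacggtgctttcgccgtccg
*Mrpl10*, *Mrpl22* and *Mrpl51* hold 1 match each, and *Mrpl32* holds 4 NRF1 matches, the first pair of them overlapping on opposite strands. The level of *Mrpl32* was 12.2, 12.4 and 13.1 FPKM in the mock and 16.5, 14.2 and 14.8 FPKM in the quinpirole libraries, apart but not past the threshold (0.24 ± 0.06, limma adjusted p = 0.0522).

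Members also shared a genomic arrangement. In 33 of 77 (42.9%) the start lay within 1000 bases of the start of a gene on the opposite strand that runs the other way, as in 16.6% of 12138 tested protein-coding genes. *Mrpl46* and *Mrps11* form such a pair with each other, and 12.2% of the exonic bases of *Mrpl46* lie opposite *Mrps11*, where reads of the pair cannot be told apart without strand. *Mrpl46* stood at 13.5, 14.4 and 15.0 FPKM in the mock and 17.2, 16.0 and 17.9 FPKM in the quinpirole libraries, and rose by 0.24 ± 0.06 (log2, SE, limma adjusted p = 0.0462). *Mrps11* stood at 19.8, 18.2 and 22.4 FPKM in the mock and 25.2, 23.9 and 22.2 FPKM in the quinpirole libraries. Its groups overlapped, at 0.23 ± 0.08 (limma adjusted p = 0.101). The YY1 letters (capitals, on the other strand) occur in the 150 bases before *Mrps11* (chr7:78782981-78783130, plus strand) and not in the 150 bases before *Mrpl46*.
Mrps11: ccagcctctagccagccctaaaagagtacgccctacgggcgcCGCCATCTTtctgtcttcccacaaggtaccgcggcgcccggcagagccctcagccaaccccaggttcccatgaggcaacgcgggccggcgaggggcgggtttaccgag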

How the data were processed

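RNA of microbead-isolated astrocytes was sequenced in 3 mock and 3 quinpirole libraries. Per the labels and the study's methods, the authors made libraries with a poly-T, NEBNext Ultra protocol, sequenced paired ends on an Illumina HiSeq, mapped reads with TopHat2 to GRCm38 and used only those with at most 1 mismatch. The values deposited are FPKM, a single number for each gene in each library, corrected for transcript length and for depth. The program for FPKM, its annotation and the versions are not given in the sources used here, nor is a strand setting. Groups came from the treatment label. The members and gene lists were chosen with earlier results of these data known.

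Identifiers were matched to symbols, positions and exonic lengths in GENCODE M21 (17090 of 17193 matched). Genes with a mean of at least 1 FPKM were tested in limma 3.58.1 (R 4.3.3; lmFit, eBayes with trend, no covariate) on log2(FPKM + 1), two-sided, with Benjamini-Hochberg adjustment over 12255 genes and a threshold of 0.05. A fold change on this scale understates that of low genes. No test was run over the members as a list. Depth was estimated from multiples of what 1 fragment is worth in low values, of which 60.8% to 71.1% lay within 0.1 of a whole number, too few for a count test. At that depth the fewest estimated fragments of a member in a library were 248 (median 805), and intervals from counting were not used. In simulated data with 200 of 12255 genes changed by 1 (log2), 193 were recovered, with 13 false calls. The members' log2 fold changes ran from -0.12 to 0.36, so this recovery does not carry over to changes of their size. The simulated noise was independent between genes, without shifts of whole libraries, so the false calls do not carry over either.

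Named genes were, by subunit, the 8 large and 6 small members of smallest p, the 3 largest log2 fold changes, those below 0 (at most 5), the 3 highest and 2 lowest levels, 10 members named for their roles, and called genes of the pathway lists (at most 4 a list). Others are named as examples of called members or as members that a sequence or position singles out. Alternatives were another pseudocount (0.1), filter (none, or 5 FPKM), scaling (total, median ratio, quantile), eBayes setting, a replicate block, loess corrections (span 0.3) for length and GC content, subunits by structure, and each library left out. The values gave no sign that replicate numbers pair the libraries: deviations of same-numbered libraries from their group means correlated at 0.03, -0.07 and -0.10. Python 3.11.15 with pandas 2.3.3 and matplotlib 3.10.9 did the rest.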

Additional observations from a re-analysis of the deposited data

How the results depend on the processing

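The members called, 20 as reported (13 large, 7 small), were 7 (6, 1) with no filter on low values. Scaling gave 3 (2, 1) by total FPKM, 17 (11, 6) by median ratio and 6 (5, 1) by quantile normalization. There were 3 (3, 0) with eBayes without trend, 3 (1, 2) with the length correction and 1 (1, 0) with length and GC content. In this order 9.09%, 3.90%, 22.1%, 7.79%, 3.90%, 3.90% and 1.30% of members were called higher. Over all tested genes it was 1.91%, 1.80%, 4.73%, 2.31%, 2.39%, 2.09% and 1.53%. Genes called over the whole table, 1339 as reported, were 633 with no filter, 783 with quantile normalization, 714 without trend, 509 with the length correction and 375 with length and GC content. Leaving out 1 library gave 0 to 20 members (0 to 11 large, 0 to 9 small) and 3 to 1215 genes.

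With the replicate block, 0 members and 2 genes were called in limma (39 members at an unadjusted p under 0.05, and 3308 genes). With the block and the length correction it was 0 and 0 (22 members at an unadjusted p under 0.05, and 2723 genes). The values gave no sign that the numbers pair the libraries, and no library correlated best with its own number.

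The median log2 fold change of the large subunit, 0.17, was 0.09 with total scaling, 0.08 with the length correction (also with the block) and 0.10 with length and GC content. That of the small subunit, 0.16, was 0.09, 0.09 and 0.08. The log2 ratios of the sums, 0.17 and 0.20, were 0.09 and 0.12 with total scaling. The difference of 0.015 between the medians was 0.001 with a pseudocount of 0.1, -0.001 with quantile normalization and -0.015 with the length correction (also with the block), and -0.012 to 0.013 with a library left out. The share of all calls that were higher was 52.6% as reported, 15.1% with total scaling and 36.1% with quantile normalization.

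Of 736 values of 39 named genes under alternatives, 459 kept direction and side of the threshold, 254 lost the call, 8 gained it and 15 changed sign. *Mrpl19* and *Mrpl47* turned to 0.01 and 0.03 with quantile normalization. *Mrps17* turned to 0.00 with the length correction, also with the block, and *Mrps34* to -0.02 there and to -0.00 with total scaling. With a library left out *Mrpl19* ran from -0.08 to 0.04, *Mrpl47* from -0.09 to 0.09, *Mrps17* from -0.06 to 0.01 and *Mrps23* from -0.40 to 0.19. The causes were not tested.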

Other observations

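The genes that start head to head with members are given beside the members, as a description. Leaving out the pair of members, 30 such neighbours were tested, and 15 had a log2 fold change above 0, with a median of 0.01, while 29 of the 30 members in these pairs had one above 0, with a median of 0.17. Of the neighbours 3 were called higher in limma, *Tcp1*, a chaperonin subunit beside *Mrpl18* (0.29, adjusted p = 0.025), *Ndufs6*, a subunit of respiratory complex I beside *Mrpl36* (0.27, adjusted p = 0.0383), and *Fau*, which encodes a ribosomal protein fused to a ubiquitin-like protein, beside *Mrpl49* (0.21, adjusted p = 0.0459). One was called lower, *B430218F22Rik* beside *Mrps30* (-0.45, adjusted p = 0.0404). The neighbours were longer than the members, with a median exonic length of 4504 against 2037 bases, and the part of length in this difference was not tested. These values were looked up after the members' values were seen.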
